A study of Temora longicornis with 12 samples.

Results

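The transcripts described here are those whose level set 3 libraries of copepods kept warm for 5 days apart from the other 9 libraries of the series. They were chosen from the measured values themselves. A transcript was a member when its mean over all 12 libraries was at least 1 CPM and all 3 sustained libraries lay above, or all 3 lay below, each of the other 9. The mean of the 3 also had to differ at least 1.5-fold from the mean of the 9. Levels are in CPM, the count scaled to a common library total, here without the transcript TRINITY_DN157064_c6_g3_i1. Of 44985 transcripts in the table, 31102 reached the minimum level and 122 were members, 50 higher and 72 lower in the sustained group.

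RNA was sequenced from whole adults of the copepod Temora longicornis, kept in the dark with aeration, with 3 of 4 vessels sequenced in each of 4 groups. The control group stayed at 14 °C for 5 days, and the sustained group was brought to 17 °C within 24 h and kept there. The acute group had 4 days at 14 °C and a last 24 h at 17 °C. The recovery group was warmed like the sustained group and spent its last 24 h at 14 °C. All groups were exposed for 120 h in total. The labels give vessels as replicates, do not say how many animals were in a library, and give no batch. The libraries come from whole bodies, so fewer cells of a type and less RNA per cell cannot be told apart.

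Copepods are small crustaceans that cannot hold their body temperature, so sea water sets the temperature at which their proteins and membranes work. In animals of this kind, warming is known to change the RNA for chaperones that refold proteins, for energy metabolism and for the cuticle, and an early response often differs from the state reached after days. The transcripts of this study come from a Trinity assembly, in which an identifier names a component (c), a gene within it (g) and a transcript of that gene (i). No source used here gives these identifiers a gene name, so members are described by identifier, level and relation to each other, with no function. Transcripts of one component can be alike in sequence and share reads, which makes their separate levels uncertain.

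Library totals without TRINITY_DN157064_c6_g3_i1 ranged from 8659487 in control replicate 2 to 23838612 in sustained replicate 1. That transcript took between 0.00387% and 53.1% of the counts of a library. Control replicate 2 stood apart, with a median Spearman correlation of 0.833 with the other libraries, against 0.911 to 0.936 for the others. Several results that rest on it are given with and without it.

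The number of members for sustained warming lay within the range of the other groups. The same rule, applied to each labelled group in turn, gave 116 transcripts for the control group (36 higher, 80 lower), 154 for the acute group (67 higher, 87 lower) and 110 for the recovery group (40 higher, 70 lower). The sustained group had 122, or 0.392% of the transcripts at the minimum level, 0.161% higher and 0.231% lower. The shares of the other groups were 0.373% for control (0.116% higher, 0.257% lower), 0.495% for acute (0.215% and 0.28%) and 0.354% for recovery (0.129% and 0.225%). The rule itself uses these contrasts, so the counts are a description and carry no test. With TMM scaling, which aligns libraries by their bulk of transcripts, the sustained group had 108 and the other groups had 83 to 128. On that scale fewer transcripts, 27924, reached the minimum level. Without control replicate 2 the sustained group had 139, the recovery group 133 and the acute group 338. The control group, then a library short, had 444. More transcripts were lower than higher in each of the 4 groups. With library totals that include TRINITY_DN157064_c6_g3_i1, that split turned for the control and acute groups and not for the sustained and recovery groups. The control group then had 72 higher and 1 lower, the acute group 167 and 6, the sustained group 8 and 28, and the recovery group 0 and 474. On such totals, a larger share of that transcript lowers the CPM of every other transcript in the library. In replicate order its share was 53.1%, 47.2% and 19.3% in recovery and 19.4%, 7.04% and 43.8% in sustained libraries. It was 26.0%, 25.2% and 0.00387% in control and 0.00986%, 17.9% and 25.4% in acute libraries. Leaving out a single library changed the sustained count by more than 1.5 times in 6 cases. Higher transcripts then numbered 504, 131 and 152 without sustained replicates 1, 2 and 3, 185 without recovery replicate 3 and 91 without acute replicate 1. Lower transcripts numbered 383, 178 and 264 without sustained replicates 1, 2 and 3, 140 without recovery replicate 3 and 112 without control replicate 3. Fewer libraries make the rule easier to meet by construction.

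**Figure D1:**
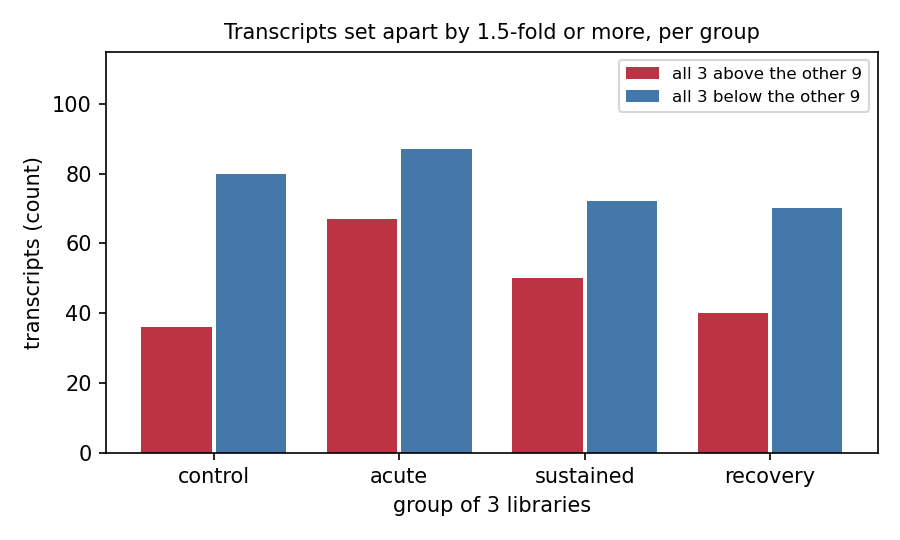
The horizontal axis gives the group and the vertical axis the number of transcripts with all 3 libraries of that group above (red) or below (blue) the other 9 and a fold of at least 1.5. The sustained group, with 50 and 72, lies between the acute group, with 67 and 87, and the recovery group, with 40 and 70.

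Most members were of low abundance. The mean level had a median of 2.15 CPM among higher members (range 1.02 to 43.5) and 2.30 CPM among lower members (range 1.00 to 108). A level under 5 CPM was found for 86% of higher and 81.9% of lower members, against 50.1% of all transcripts at the minimum level. In the other groups this share was between 67.8% and 87.5% of the transcripts set apart. Folds over the other 9 libraries ranged from 1.52 to 2.97 among higher members, with a median of 1.76, and 8 of 50 reached 2-fold. Lower members had a median fold of 2.03, 37 of 72 reached 2-fold and 13 reached 3-fold. The median of the group means of higher members was 3.16 CPM for sustained, 1.58 CPM for control, 1.58 CPM for acute and 1.82 CPM for recovery vessels. For lower members it was 1.28 CPM for sustained, 2.63 CPM for control, 2.61 CPM for acute and 2.28 CPM for recovery vessels.

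Without the fold minimum, 96 transcripts would have been higher and 113 lower. The higher member nearest the threshold was TRINITY_DN188911_c0_g18_i1, with a fold of 1.52 (9.01 against 5.94 CPM). The nearest excluded one was TRINITY_DN187027_c0_g7_i1, with a fold of 1.4997 (1.84 against 1.22 CPM). On the lower side, TRINITY_DN187189_c3_g15_i3 was a member with a fold of 1.51 (1.88 against 2.84 CPM), and TRINITY_DN182025_c0_g11_i1 was not, at 6.40 against 9.58 CPM. The second nearest on each side were TRINITY_DN177829_c3_g10_i1 and TRINITY_DN188410_c0_g24_i1 inside, and TRINITY_DN188143_c0_g8_i1 and TRINITY_DN187968_c2_g25_i1 outside, with folds of 1.52, 1.52, 1.499 and 1.48. Members and excluded transcripts thus met without a break at the threshold.

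Among higher members, the widest gaps between the lowest sustained and the highest other library belonged to 5 transcripts of low abundance, none above 6.16 CPM in any library. TRINITY_DN191005_c0_g3_i1 was at 3.15, 6.16 and 3.30 CPM in the sustained libraries. It was at 1.98, 1.27 and 2.20 CPM in the control, 1.74, 1.38 and 1.53 CPM in the acute and 1.47, 2.04 and 1.68 CPM in the recovery libraries. The other 9 libraries lay close together, and sustained replicate 2 was almost at the sum of the other sustained libraries. Sustained vessels averaged 4.20 ± 1.70 CPM (SD, n = 3), control vessels 1.82 ± 0.486 CPM, acute vessels 1.55 ± 0.177 CPM and recovery vessels 1.73 ± 0.289 CPM.

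TRINITY_DN168960_c1_g2_i1 had the largest fold of the higher members, 2.97. Its sustained libraries were at 3.19, 3.69 and 5.44 CPM. The control libraries were at 1.42, 0.808 and 0.870 CPM, the acute libraries at 1.74, 1.64 and 0.944 CPM and the recovery libraries at 1.20, 1.57 and 2.26 CPM. The control, acute and recovery groups overlapped, with recovery replicate 3 nearest to the sustained level. It was 1 of 3 transcripts of its Trinity gene and held 26.2% of the gene's counts on the CPM scale. The other transcripts of that gene, TRINITY_DN168960_c1_g2_i2 and TRINITY_DN168960_c1_g2_i3, averaged 2.65 and 5.0 CPM under sustained warming against 1.95 and 3.24 CPM in the other 9, with overlapping libraries. The sum over the gene was still set apart, by 1.79-fold.

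The other 3 of these transcripts were nearer to the rest. TRINITY_DN180017_c1_g4_i2 was at 1.93, 2.26 and 1.77 CPM in the sustained libraries and between 0.115 CPM (control replicate 2) and 1.25 CPM (recovery replicate 3) elsewhere. TRINITY_DN166526_c0_g1_i1 was at 3.73, 4.57 and 3.79 CPM against 1.60 to 3.00 CPM, and TRINITY_DN185903_c3_g8_i1 at 1.97, 1.54 and 2.57 CPM against 0.346 to 1.22 CPM. For TRINITY_DN180017_c1_g4_i2 the sum over its Trinity gene was not set apart. The second transcript of the gene, TRINITY_DN180017_c1_g4_i1, averaged 0.818 CPM with sustained warming against 1.18 CPM over the other 9.

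**Figure D2:**
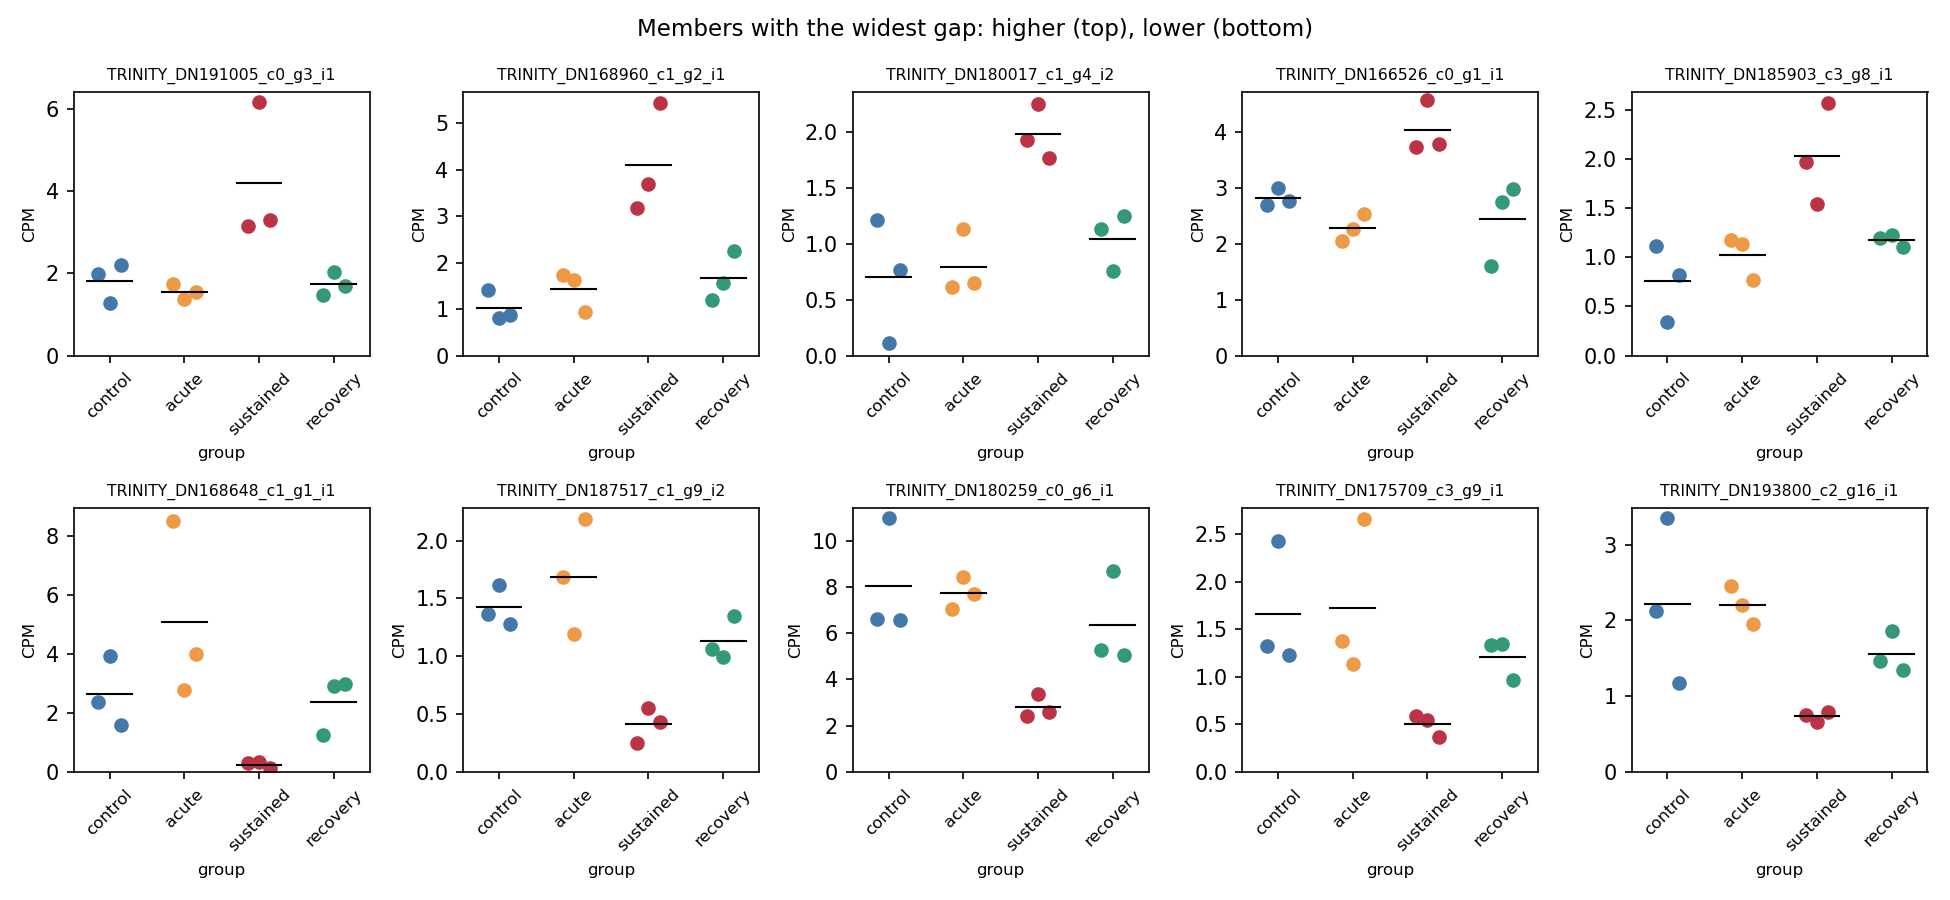
Each panel shows one transcript, with the group on the horizontal axis, CPM on the vertical axis, a point per library and a line at the group mean. In the top row all 3 sustained libraries lie above the other 9, and in the bottom row below them; the widest separation is that of TRINITY_DN168648_c1_g1_i1, whose sustained libraries are at 0.122 to 0.330 CPM.

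The most abundant higher members were set apart by small steps. TRINITY_DN190719_c0_g14_i1 was at 50.5, 74.5 and 63.1 CPM in the sustained libraries. Its control libraries were at 44.6, 0.462 and 48.7 CPM, its acute libraries at 43.1, 46.7 and 32.9 CPM and its recovery libraries at 49.8, 43.5 and 24.3 CPM. Recovery replicate 1 was just under sustained replicate 1, and control replicate 2 was far under all the others. Its fold of 1.69 was 1.504 without control replicate 2.

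TRINITY_DN173730_c0_g6_i2 was at 33.4, 49.1 and 37.2 CPM in the sustained libraries, and at 28.9, 1.96 and 22.6 CPM in the control libraries. The acute libraries were at 22.4, 23.6 and 26.6 CPM and the recovery libraries at 21.9, 15.5 and 30.0 CPM. Control replicate 2 was again the lowest by far. This transcript held 84.6% of its gene, whose sum was set apart by 1.82-fold. TRINITY_DN168615_c6_g9_i1 was at 25.4, 35.9 and 33.8 CPM in the sustained libraries against 11.3 to 25.2 CPM, and here control replicate 2 was the highest of the other 9.

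Low values in control replicate 2 were frequent among higher members. It was the lowest of the other 9 libraries for 25 of 50 higher members, or 50%, against 20.8% of all transcripts at the minimum level. It had 0 counts for 3 of them. Among higher members, 7 spanned more than 10-fold over the other 9 libraries (after adding 0.2 CPM), and control replicate 2 was the lowest in all 7. Such a span was found for 6.52% of all transcripts at the minimum level and for 6 of 72 lower members. Among lower members it was the highest of the other 9 for 30 of 72, or 41.7%, against 23.7% of all transcripts. Without that library the fold fell under 1.5 for 8 of 50 higher and 10 of 72 lower members. Applied without that library, the rule gave 65 higher transcripts, 42 of them members before, and 74 lower, 59 of them members before.

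Among lower members, TRINITY_DN168648_c1_g1_i1 was the furthest apart. Its counts were 7, 6 and 2 in the sustained libraries, 47, 34 and 31 in the control, 167, 44 and 68 in the acute and 19, 50 and 62 in the recovery libraries. In CPM the sustained libraries were at 0.294, 0.330 and 0.122, and the nearest other library, recovery replicate 1, was at 1.27. The ratio of the nearest libraries was 3.84, with a 95% Clopper-Pearson interval from 1.47 to 11.7 that covers counting error only. The transcript held 88.1% of its Trinity gene, and the sum over that gene was 11.4-fold lower in the sustained group than in the other 9 libraries.

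The next 4 lower members by gap had folds of 2.64 to 3.45. TRINITY_DN180259_c0_g6_i1 was at 2.43, 3.36 and 2.57 CPM in the sustained libraries, 6.59, 10.97 and 6.55 CPM in the control, 7.05, 8.43 and 7.67 CPM in the acute and 5.27, 8.68 and 5.04 CPM in the recovery libraries. All other libraries were at 5 CPM or more, with recovery replicates 1 and 3 nearest to the sustained level. Transcripts of other genes of its component were not set apart. Among them, TRINITY_DN180259_c0_g9_i1 averaged 120 CPM with sustained warming against 135 CPM over the other 9, and TRINITY_DN180259_c0_g2_i1 4.17 against 2.87 CPM. TRINITY_DN187517_c1_g9_i2 was at 0.252, 0.550 and 0.428 CPM against 0.991 to 2.18 CPM. It held 8.62% of its gene, and the more abundant transcript TRINITY_DN187517_c1_g9_i1 averaged 8.10 CPM with sustained warming and 8.62 CPM otherwise.

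TRINITY_DN175709_c3_g9_i1 was at 0.587, 0.550 and 0.367 CPM in the sustained libraries and at 0.960 to 2.66 CPM elsewhere. TRINITY_DN193800_c2_g16_i1 was at 0.755, 0.660 and 0.795 CPM and at 1.18 to 3.35 CPM elsewhere. The highest library was acute replicate 3 for the first and control replicate 2 for the second. A second transcript of the same component, TRINITY_DN193800_c2_g1_i2, was also a lower member, at 1.51, 1.54 and 1.41 CPM against 1.64 to 3.33 CPM. More abundant transcripts of that component were not set apart. TRINITY_DN193800_c2_g33_i1 averaged 11.8 CPM with sustained warming against 11.7 CPM over the other 9, and TRINITY_DN193800_c2_g15_i3 3.38 against 3.19 CPM. TRINITY_DN193800_c2_g15_i1 was at 8.79 against 11.5 CPM and TRINITY_DN193800_c2_g36_i1 at 6.44 against 8.75 CPM.

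The most abundant lower members included a transcript with large differences between replicates. TRINITY_DN187264_c3_g4_i1 was at 26.9, 13.9 and 27.6 CPM in the sustained libraries. It was at 166, 332 and 28.6 CPM in the control, 162, 45.3 and 325 CPM in the acute and 32.3, 113 and 28.7 CPM in the recovery libraries. Control replicate 3 and recovery replicates 1 and 3 were close to the sustained level, while acute replicate 2 was the nearest acute library, and the ratio of the nearest libraries was 1.03 (95% interval 0.913 to 1.17). Another gene of the component, TRINITY_DN187264_c3_g1_i1, followed it: the ratio of the CPM values of the 2 transcripts stayed between 1.33 and 1.87 in all 12 libraries. That transcript was at 50.4, 25.5 and 48.5 CPM in the sustained libraries, and control replicate 3 was at 48.1 CPM, so it was not a member. Whether the 2 share reads was not tested.

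TRINITY_DN180961_c1_g4_i1 was at 24.9, 23.05 and 27.1 CPM in the sustained libraries. The control libraries were at 37.4, 45.04 and 28.5 CPM, the acute libraries at 48.8, 53.0 and 43.4 CPM and the recovery libraries at 45.7, 72.8 and 36.2 CPM. Its spread within the sustained group was small, and control replicate 3 was nearest to it. A neighbour in the same component, TRINITY_DN180961_c1_g6_i1, was also a lower member, at 1.76, 1.76 and 2.02 CPM against 2.20 to 6.29 CPM. The first was 9.20 to 16.5 times the second over the 12 libraries, a ratio that also holds the unknown lengths of the transcripts. TRINITY_DN177016_c2_g8_i1 was at 16.02, 11.2 and 9.30 CPM in the sustained libraries and at 19.2 to 47.4 CPM elsewhere. In its component, TRINITY_DN177016_c2_g12_i1 and TRINITY_DN177016_c2_g12_i2 averaged 927 and 21.2 CPM with sustained warming. Over the other 9 they averaged 1005 and 35.8 CPM, with overlapping libraries.

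A further 5 lower members spanned more than 10-fold over the other 9 libraries; with TRINITY_DN187264_c3_g4_i1 they make 6, singled out after their values were seen. TRINITY_DN165898_c0_g2_i2 had 3 counts in all sustained libraries together and 1150 in the other 9. Acute replicate 3 was at 33.3 CPM, control replicate 2 at 19.7 CPM and acute replicate 1 at 17.8 CPM, and all other libraries were at 2.098 CPM or less.

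TRINITY_DN168172_c0_g1_i2 and TRINITY_DN170876_c1_g5_i12 had 2 sustained counts each. The first was at 4.72 CPM in acute replicate 3, 4.50 CPM in control replicate 2 and 3.32 CPM in recovery replicate 2, and at 0.576 CPM or less in the others. The second was at 5.84, 9.35 and 3.20 CPM in the same libraries, at 1.43 CPM in acute replicate 1, and at 0.203 CPM or less in the others.

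TRINITY_DN175114_c3_g3_i3 reached 13.03 CPM in control replicate 1 and 6.08 CPM in acute replicate 3, and TRINITY_DN175356_c0_g4_i1 reached 11.63 CPM in acute replicate 3 and 3.04 CPM in control replicate 1. Acute replicate 3 was among the 3 highest of the other 9 libraries for all 6 of these transcripts. Control replicate 2 was among them for 4, control replicate 1 and recovery replicate 2 for 3 each, and control replicate 3, recovery replicate 1 and recovery replicate 3 for 0. The nearest other library came within 1.38-fold of the sustained libraries for each of the 6 (after adding 0.2 CPM), and the high libraries were spread over the other groups.

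**Figure D3:**
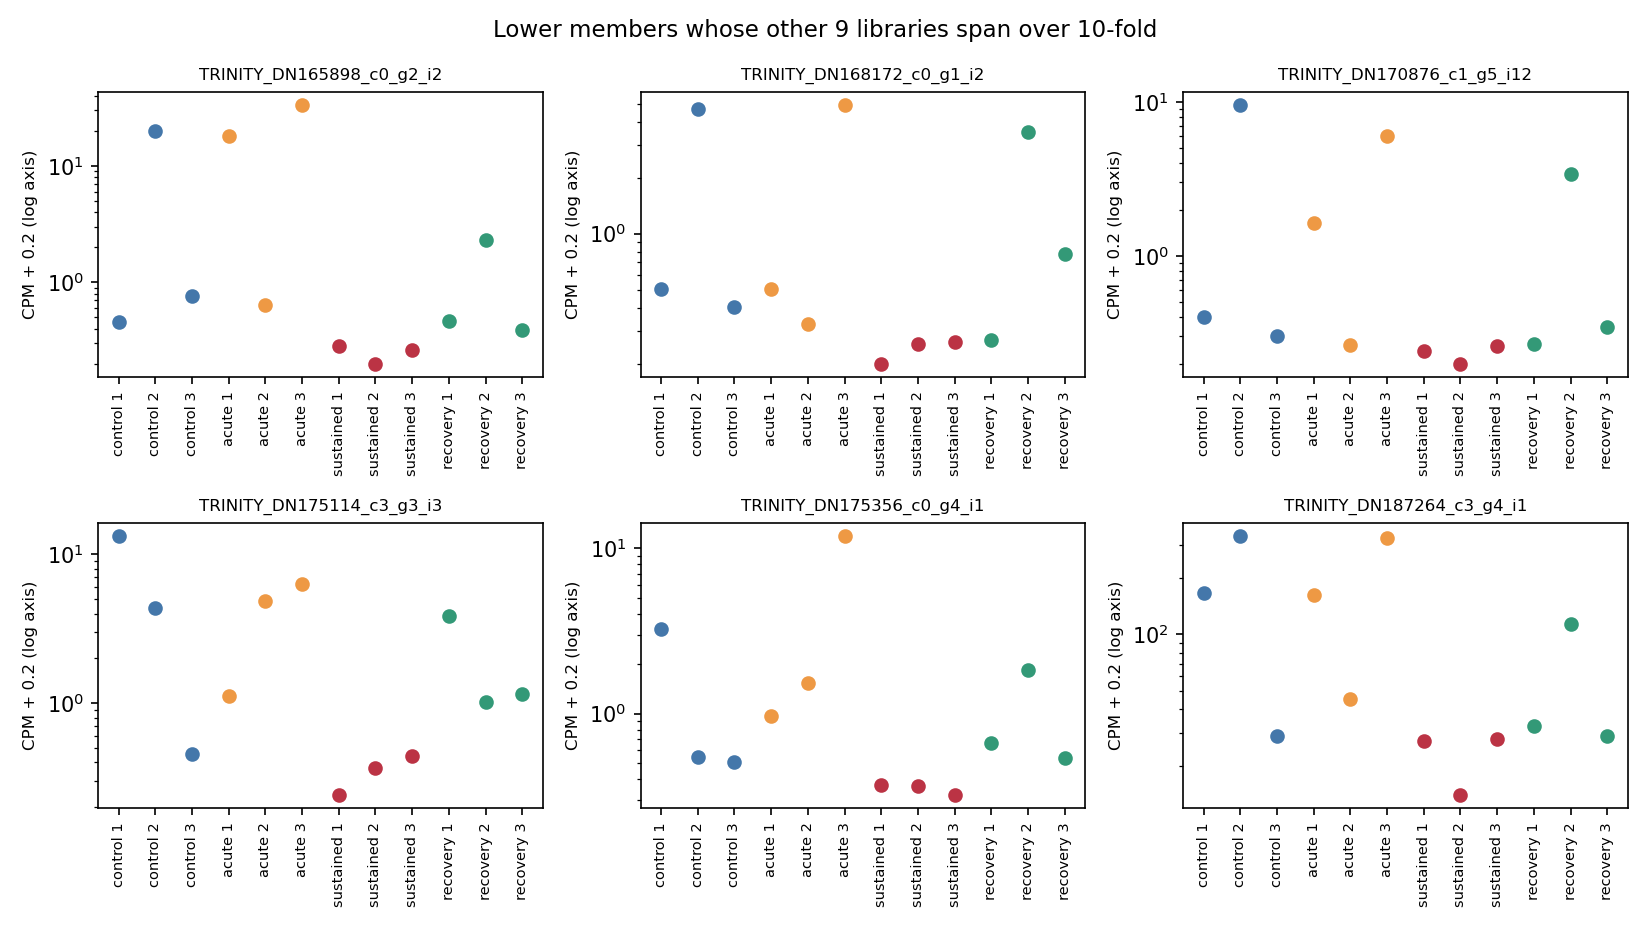
Each panel shows one lower member, with the library on the horizontal axis and CPM plus 0.2 on a logarithmic vertical axis, coloured by group. The sustained libraries are lowest in every panel, and acute replicate 3 is among the 3 highest in each.

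The ratio of the nearest sustained and other library was set beside its counting error, as a description: the rule chose members on these values, and the interval leaves out the spread between vessels. The 95% Clopper-Pearson interval of the ratio of the nearest libraries included 1 for 49 of 50 higher and 69 of 72 lower members. The 4 with an interval above 1 were TRINITY_DN173730_c0_g6_i2 (1.12, interval 1.00 to 1.24), TRINITY_DN168648_c1_g1_i1, TRINITY_DN180259_c0_g6_i1 (1.503, 1.09 to 2.095) and TRINITY_DN177016_c2_g8_i1 (1.20, 1.03 to 1.40). In the other groups, taking both directions, 4 of 116 control, 6 of 154 acute and 7 of 110 recovery transcripts set apart had such an interval above 1. The gap ratio of TRINITY_DN168648_c1_g1_i1, 2.77 after adding 0.2 CPM, was larger than the widest in any other group, 1.75 in the acute group. It was chosen as the widest of its own group, so this comparison is a description.

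**Figure D4:**
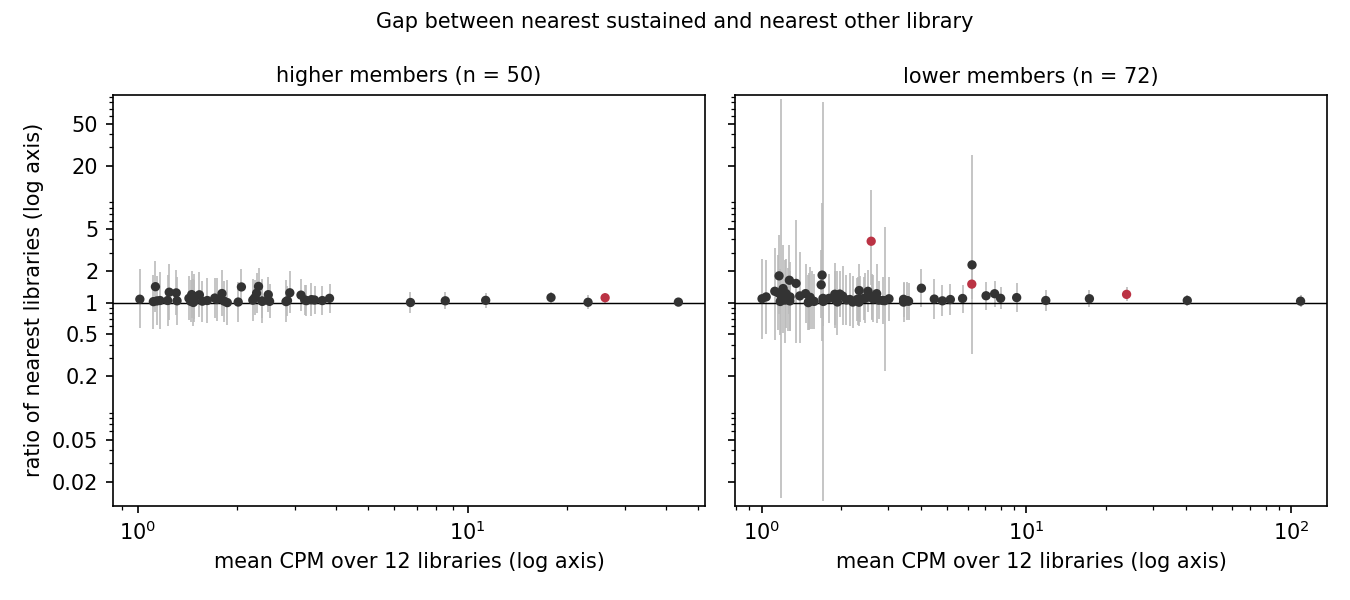
The horizontal axis is the mean CPM over 12 libraries and the vertical axis the ratio of the nearest sustained and other library, both logarithmic, with 95% intervals for counting error as grey lines. Intervals above 1 are marked in red, 1 of 50 among higher and 3 of 72 among lower members.

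Many members were 1 of several transcripts of a Trinity gene, and the summed gene was then set apart in the minority of cases. No 2 members shared a gene, and 6 lower members shared a component with another member: the pairs in TRINITY_DN180961_c1, TRINITY_DN193800_c2 and TRINITY_DN180260_c1. The member was the gene's sole transcript in the table for 28 of 50 higher and 42 of 72 lower members (56% and 58.3%), against 62.2% of all transcripts at the minimum level. Where the gene had more transcripts, its summed level was still set apart for 4 of 22 higher and 3 of 30 lower members. The 4 were TRINITY_DN168960_c1_g2_i1, TRINITY_DN173730_c0_g6_i2, TRINITY_DN183882_c1_g2_i4 and TRINITY_DN185550_c4_g3_i2. The 3 were TRINITY_DN165898_c0_g2_i2, TRINITY_DN168648_c1_g1_i1 and TRINITY_DN187182_c1_g3_i1, named like TRINITY_DN183882_c1_g2_i4 after their values were seen. In the rest, the libraries of the summed gene overlapped. Their gene sums still differed by up to 2.12-fold on the higher side and up to 50.7-fold on the lower side, the latter for the gene of TRINITY_DN170876_c1_g5_i12. How counting divided reads between transcripts of a gene is not given in the sources used here.

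The 3 sustained libraries did not take equal parts. Sustained replicate 2 was the highest of the 3 for 28 of 50 higher members and the lowest for 37 of 72 lower members, against 31.8% and 40.9% of all transcripts at the minimum level. Relative to the mean of the other 9 libraries, higher members had a median log2 level of 0.64 in sustained replicate 1, 0.85 in replicate 2 and 0.72 in replicate 3. Lower members were at -0.78, -1.02 and -0.81. These libraries lay within 1.5-fold of each other for 42 of 50 higher and 55 of 72 lower members.

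**Figure D5:**
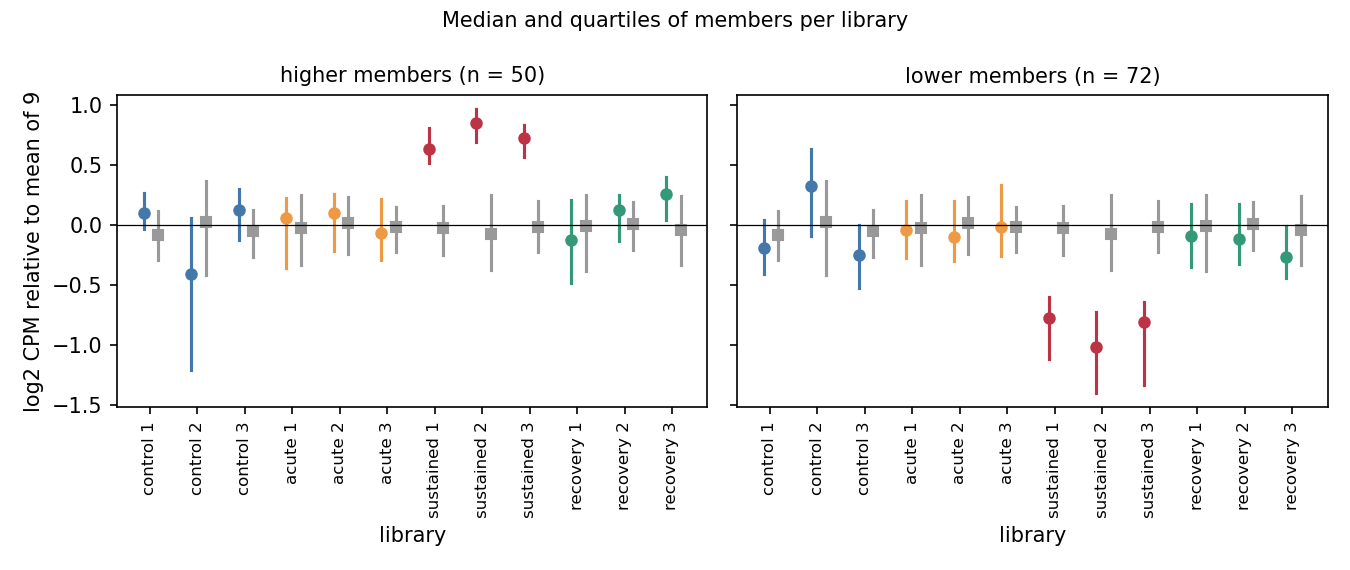
For each library on the horizontal axis, the vertical axis gives the log2 level (after adding 0.2 CPM) relative to the mean of the 9 libraries outside the sustained group, as median (point) and quartiles (line). Coloured circles are members and grey squares all 31102 transcripts at the minimum level; among the other 9 libraries, control replicate 2 has the lowest median for higher members (-0.41) and the highest for lower members (0.32).

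The rule treats the 9 other libraries alike, so it did not compare the control, acute and recovery groups with each other. It did require every acute and recovery library to stay short of the sustained level. A transcript moved to that level within a day, or still at it in recovery, could not be a member. The contrasts can show only differences that stop short of the sustained level or point away from it. Within that limit, the first asked whether a single day at 17 °C already moved the members in part. All 122 passed the low-count filter among 40943 transcripts tested. In edgeR's quasi-likelihood test of acute against control, 0 members and 0 of all transcripts passed an adjusted p of 0.05 (DESeq2 called 0 members and 3 of all). The unadjusted p was under 0.05 for 0 of 50 higher and 2 of 72 lower members, where 3.9% of all transcripts tested had such a p (2.06% higher, 1.83% lower in the acute group). The median log2 difference of acute minus control was 0.02 for higher members (27 positive, 23 negative) and 0.01 for lower members (36 positive, 36 negative), against 0.01 over all transcripts. Without control replicate 2 these medians were -0.18 and 0.22. The rule bounds the 9 libraries on 1 side, which limits how far they can differ.

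The transcript with the smallest p among higher members was TRINITY_DN169214_c0_g1_i2, with 1.17, 0.808 and 0.717 CPM in control and 1.64, 1.38 and 1.48 CPM in acute vessels. These did not overlap, at means of 0.897 ± 0.238 and 1.498 ± 0.127 CPM (SD, n = 3). Its log2 difference was 0.69 ± 0.41 (SE), with an adjusted p of 0.987 in edgeR. Among lower members it was TRINITY_DN179008_c1_g3_i1, at 1.12, 1.96 and 0.870 CPM in the control and 5.42, 1.13 and 2.48 CPM in the acute libraries, against 0.168, 0.275 and 0.306 CPM in the sustained libraries. These groups overlapped, and the log2 difference of 1.24 ± 0.55 did not pass (edgeR adjusted p = 0.987).

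The second contrast asked whether a part of the members' difference remained 24 h after the return to 14 °C. Transcripts that kept all of it were barred by the rule. No member passed in recovery against control, and edgeR called 0 of 40943 transcripts (DESeq2 called 0 members and 1 of all). The unadjusted p was under 0.05 for 0 of 50 higher and 3 of 72 lower members, against 3.18% of all transcripts (1.46% higher, 1.72% lower in the recovery group). Higher members had a median log2 difference of 0.21 (33 positive, 17 negative) and lower members of -0.11 (27 positive, 45 negative), against 0.02 over all transcripts. Both medians lay on the side of the sustained group. Both depended on control replicate 2, without which they were -0.14 (22 positive, 28 negative) and -0.00020 (36 positive, 36 negative).

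By name, TRINITY_DN185550_c4_g3_i2 had the smallest p among higher members. It was at 1.98, 2.89 and 2.46 CPM in the control libraries and 1.60, 1.69 and 1.63 CPM in the recovery libraries, without overlap and away from the sustained libraries at 2.98, 4.18 and 3.18 CPM. The log2 difference was -0.57 ± 0.31 (edgeR adjusted p = 1.00). TRINITY_DN180961_c1_g6_i1 had the smallest p among lower members, at 2.38, 3.00 and 2.20 CPM in the control and 3.13, 6.29 and 3.94 CPM in the recovery libraries. Its log2 difference of 0.81 ± 0.31 also pointed away from the sustained group and did not pass (edgeR adjusted p = 1.00).

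The recovery and acute groups were then compared with each other, under the same limit set by the rule. In edgeR 0 members and 0 of all transcripts passed (DESeq2 called 0 members and 1 of all). The unadjusted p was under 0.05 for 0 of 50 higher and 4 of 72 lower members, against 3.91% of all transcripts (2.09% higher, 1.82% lower in the recovery group). All 4 were lower in the recovery group. The median log2 difference was 0.17 for higher and -0.16 for lower members, with -0.01 over all transcripts. Without recovery replicate 3 the higher median was -0.06 (23 positive, 27 negative). The lower median was -0.02 with acute replicate 3 left out and -0.05 with acute replicate 2 left out. TRINITY_DN179008_c1_g3_i1, named above, had the smallest p of the lower members. Its recovery libraries were at 0.467, 0.991 and 1.01 CPM, all below the 3 acute libraries, with a log2 difference of -1.86 ± 0.56 (edgeR adjusted p = 1.00). Among higher members it was TRINITY_DN179659_c1_g2_i1, at 0.734, 1.81 and 2.30 CPM in the recovery and 0.460, 1.45 and 0.767 CPM in the acute libraries, where the groups overlapped (log2 difference 0.89 ± 0.48, edgeR adjusted p = 1.00).

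The library nearest to the sustained ones was also counted, with control replicate 2 included and not without it. For higher members the highest of the other 9 was a recovery library for 26 of 50 (52%), a control library for 12 and an acute library for 12, against 36.8%, 32.6% and 30.7% over all transcripts at the minimum level. For lower members the lowest of the other 9 was a control library for 31 of 72 (43.1%), a recovery library for 22 (30.6%) and an acute library for 19 (26.4%), against 37.4%, 35.0% and 27.6%. Recovery replicate 3 alone was the highest for 12 of 50 higher members (24%, against 13.7% of all transcripts). Control replicate 3 alone was the lowest for 17 of 72 lower members (23.6%, against 6.96% of all transcripts).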

How the data were processed

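The authors deposited raw read counts per assembled transcript for 12 libraries, per the file header and its whole-number values. Per the submitters' processing notes, HTSeq 0.6.1, edgeR, TopHat2 2.1.1 and Trim Galore 0.4.1 were used, with no roles stated. Per the labels' protocols, libraries were stranded and poly(A)-selected. Members, lists and tests were chosen with earlier results of these data known. Replicates were numbered in deposit order, which pairs nothing. Within groups, chi-square over degrees of freedom between libraries was 21.2 to 190, more than counting error alone gives. The 190 was between recovery replicates 1 and 3, with 53.1% and 19.3% of their counts in TRINITY_DN157064_c6_g3_i1. The 21.2 was between acute replicates 2 and 3, with 17.9% and 25.4%. How much of the range comes from that transcript was not tested. The chi-square value cannot show that libraries came from separate vessels, which rests on the labels.

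Contrasts were tested with edgeR 4.0.16 in R 4.3.3 (quasi-likelihood, robust, TMM, minimum count 10, minimum total 15, all 4 groups in one fit, 8 residual degrees of freedom, Benjamini-Hochberg over 40943 transcripts). Each p-value sets a difference between groups against the spread between libraries, which was pooled over the groups and shared in part across transcripts. That each library is a separate vessel rests on the labels. Standard errors were taken from the fitted difference and its F value. DESeq2 1.42.0 was an alternative. In simulated counts for recovery against control of 40943 transcripts, the fit recovered 2% of 2-fold, 56% of 4-fold and 98% of 8-fold changes. It made 11 false calls. Each fold had 50 changed transcripts, drawn from all those above 1 CPM on totals that include TRINITY_DN157064_c6_g3_i1. Members were mostly under 5 CPM, so the recovered shares need not hold for them. The simulation gave every transcript the same spread and every library the same profile apart from the changes. Transcripts with a larger spread, and a library that stands apart, were not simulated, so these shares need not hold for the data.

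Transcripts were named by rule: per direction, the 5 widest gaps, the 3 highest means, the smallest p per contrast, and those nearest the fold threshold. Others are marked as chosen after their values were seen. Planned lists of functional genes were not used, because identifiers carry no gene names. Gaps and ranges were taken after adding 0.2 CPM. Intervals hold counting error alone, and reads without molecular tags are not independent. Summaries used Python 3.11.15, pandas 2.3.3, NumPy 2.4.6, SciPy 1.17.1 and matplotlib 3.10.9.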

Additional observations from a re-analysis of the deposited data

How the results depend on the processing

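The number of members depended on scaling, thresholds and single libraries. The higher and lower counts were 50 and 72 of 31102 transcripts at the minimum level (0.161% and 0.231%). Scaling also changed how many transcripts reached that level. TMM gave 46 and 62 of 27924 (0.165% and 0.222%), with 38 and 56 shared with the members. DESeq2 size factors gave 46 and 61 of 27638 (0.166% and 0.221%), with 40 and 55 shared. Summing by Trinity gene gave 40 and 49 of 26378 genes (0.152% and 0.186%). Totals that include TRINITY_DN157064_c6_g3_i1 gave 8 and 28 of 28242 (0.0283% and 0.0991%), of which 2 and 13 were members. Of 31102 transcripts, a fold of 2 gave 8 and 37, and no fold minimum 96 and 113. A mean of at least 5 CPM gave 7 and 13 of 15507, and of at least 0.5 CPM 86 and 101 of 38480. Leaving out 1 library gave 61 to 504 higher and 74 to 383 lower, the most without sustained replicate 1. Leaving out both control replicate 2 and acute replicate 3, chosen after the data were seen, gave 91 and 105. Calls among all transcripts were 0 for each pair in edgeR. They were 3 for acute against control in DESeq2, and 1 each for recovery against control and recovery against acute. Without single libraries they were 0 to 1 for acute against control, the 1 without control replicate 2, and 0 for the other pairs. RLE factors, no low-count filter, the table without TRINITY_DN157064_c6_g3_i1, its totals without TMM and fits of only the groups compared also gave 0. No member was called under any of these. The median log2 difference of higher members ranged from -0.18 to 0.08 (acute minus control) and from -0.14 to 0.34 (recovery minus control) without single libraries, and that of lower members from -0.10 to 0.22 and from -0.21 to -0.00020. The cause was not tested. No paired analysis was possible because replicate numbers follow only the order of deposit. Low counts limit most members.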
